A study of Arabidopsis thaliana with 6 samples.

Results

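The binding of SOC1 was examined at 8 related MADS-box genes of Arabidopsis thaliana: SVP (AT2G22540), AGL24 (AT4G24540), FLC (AT5G10140), FLM (AT1G77080) and the tandem genes MAF2 (AT5G65050), MAF3 (AT5G65060), MAF4 (AT5G65070) and MAF5 (AT5G65080). They were taken by locus identifier. A listed region was assigned to a gene where its centre overlapped the gene, or lay up to 3000 bp upstream or 1000 bp downstream of it. Of the 8 genes 7 had such a region, and they had 13 of the 24032 regions in the table. By the same windows 8 of the 13 were also regions of a gene outside the group. How often this sharing between genes occurs among all listed regions was not counted.

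MADS-domain proteins bind DNA as dimers and larger complexes at CArG-box motifs. SVP and FLC form a repressor complex that acts on SOC1 and on the florigen gene FT, FLM and the MAF proteins are FLC relatives that also act on flowering time, and AGL24, the closest relative of SVP, promotes flowering together with SOC1. Ambient temperature, vernalization and the autonomous pathway act on flowering through members of this group, whereas SOC1 stands downstream as an integrator of these signals. Regions at these genes therefore bear on whether SOC1 occupies the genes of its own regulators and partners.

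Chromatin immunoprecipitation followed by sequencing (ChIP-seq) with an anti-GFP antibody had been done on shoot apices of soc1-2 mutants. The plants carried a genomic SOC1 copy under the SOC1 promoter, either fused to GFP (SOC1p:gSOC1-GFP;soc1-2, line 7, 3 libraries) or without a tag (SOC1p:gSOC1;soc1-2, line 9, 3 libraries). Both groups lack the native SOC1 function of the soc1-2 allele, grew for 15 short days followed by 3 long days, and were collected at zeitgeber time 4. Each group was 1 transgenic line, so the tag and the line cannot be told apart. ChIP read counts do not show which tissue was sampled, so the labelled apices could not be checked against marker genes. The labels do not say that replicates came from separate plantings, and p-values measure only the spread between these libraries, which may be technical. The regions held 183668 to 663108 reads in the gSOC1-GFP libraries and 41073 to 396326 in the untagged libraries, with replicate 1 the deepest of each group. The background was therefore measured with few reads in untagged replicates 2 and 3, where the median listed region had 1 and 2 reads.

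SVP alone of the 7 genes had a called region, that is, one with a false discovery rate (FDR) below 0.05 in each of the 3 replicates in the authors' deposited table. Of the 13 regions, 1 was called, against 1.12% of all listed regions, and of the 7 genes 1 had a called region, against 1.75% of all genes with a listed region. AGL24, FLC, MAF2, MAF3, MAF4 and MAF5 had listed regions, none of which passed the FDR in any single replicate. By replicate, 2, 2 and 1 of the 13 regions passed in replicates 1, 2 and 3, against 10.1%, 2.86% and 3.16% of all regions, and all 5 of these passes were at SVP. The mean log2 enrichment of gSOC1-GFP over untagged reads, taken over 3 same-numbered pairs of scaled counts, had a median of 0.11 over the 13 regions and 0.31 over all listed regions. The enrichment of single pairs was above 0 at 9, 9 and 7 of the 13 regions in pairs 1, 2 and 3, against 48.3%, 63.6% and 61.4% of all regions. Every pair was above 0 at 2 of the 13 regions, against 16.4% of all regions, and every pair was below 0 at 0 of them, against 0.903%. The 2 regions above 0 in every pair were both at SVP.

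Across libraries, no region of the group passed the quasi-likelihood test of edgeR with Benjamini-Hochberg adjustment over all listed regions, where 0 of 24032 regions passed (0%) and 762 (3.17%) had an unadjusted p under 0.05. With the replicate number as a block, 91 regions passed (0.379%), none of them among the 13. The block left 656 regions (2.73%) and 1 of the 13, in the 5' UTR of SVP, at an unadjusted p under 0.05, and without it 0 of the 13 were. DESeq2 called 94 of the 5822 regions to which it gave an adjusted p (1.61%), and 0 of the 7 regions of the group among these.

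**Figure D1:**
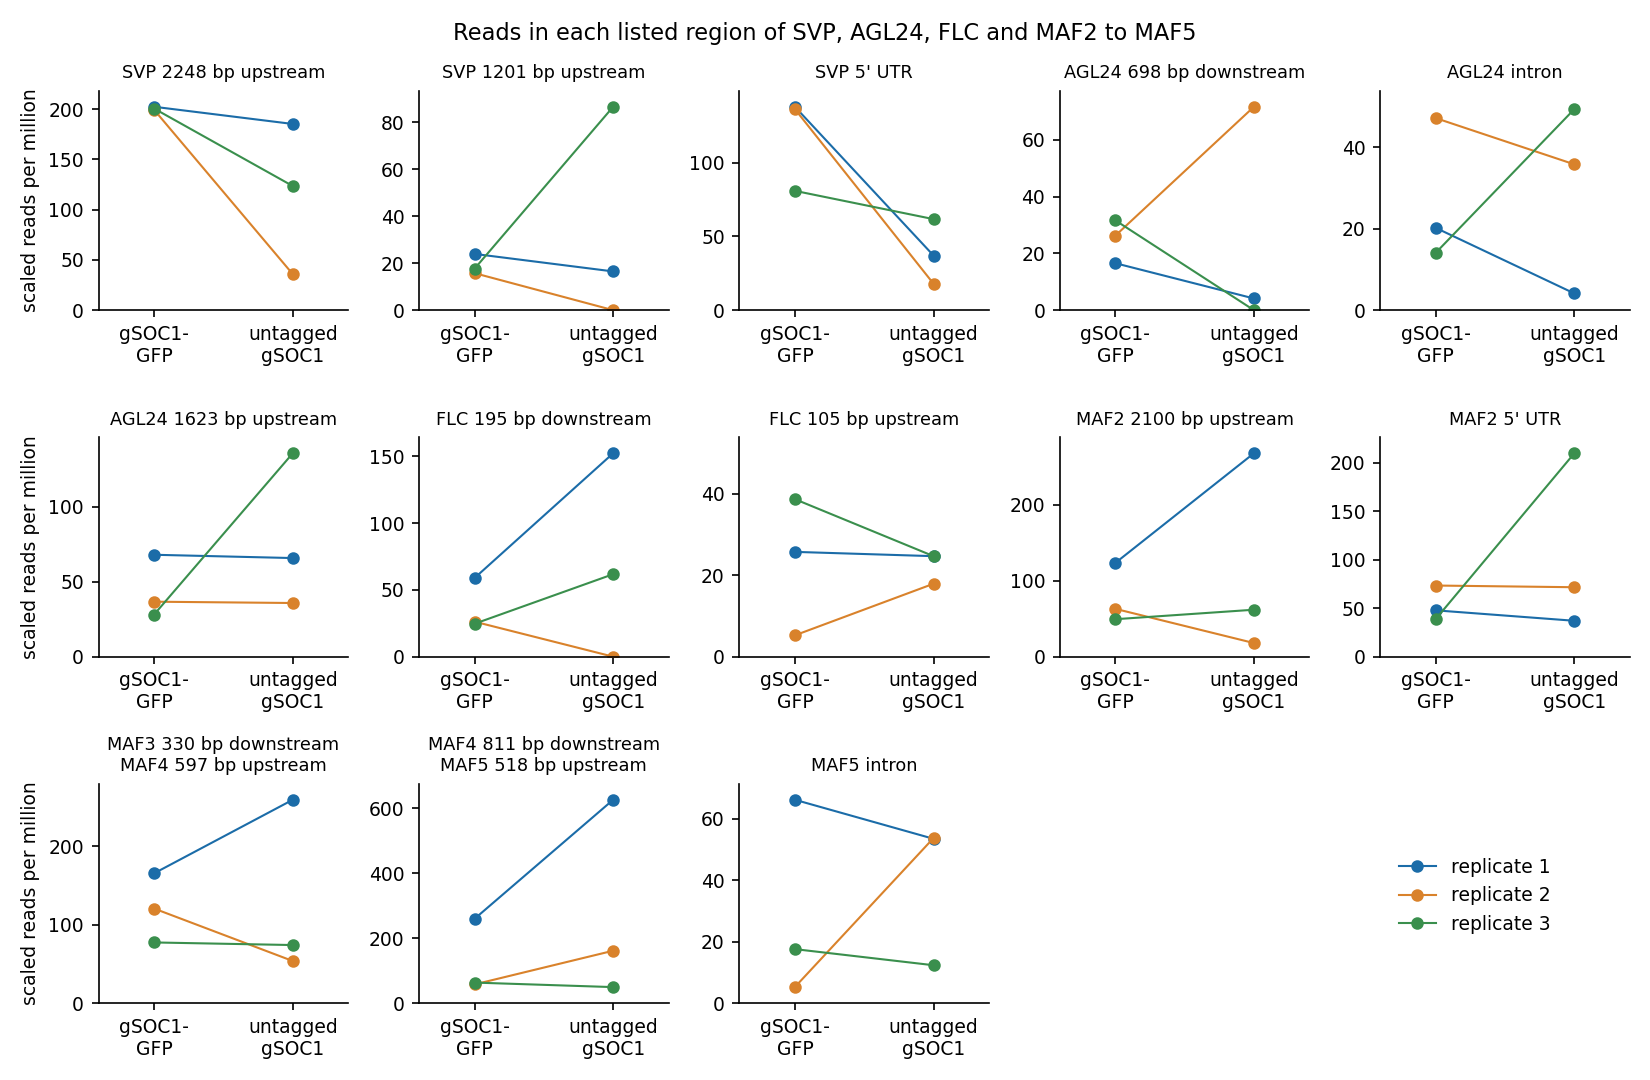
Reads in each of the 13 listed regions as edgeR CPM (counts relative to the TMM-scaled library size), in gSOC1-GFP (left) and untagged gSOC1 (right) libraries, with lines joining libraries of the same replicate number; the vertical axes differ. At the region 2248 bp upstream of SVP the 3 gSOC1-GFP libraries lie between 199 and 202, whereas the untagged libraries range from 35.8 to 185.

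SVP, the repressor that forms complexes with FLC and FLM, had 3 listed regions on chromosome 2, at 2248 bp and 1201 bp upstream and in the 5' UTR. The called region spanned 9577438 to 9577813 in TAIR10 (376 bp) and had rank 248 by the authors' rank product. It held 110, 38 and 57 reads in gSOC1-GFP replicates 1, 2 and 3, and 45, 2 and 10 reads in the untagged libraries of the same numbers. In CPM, counts relative to the TMM-scaled library size, these were 202, 199 and 201 in gSOC1-GFP, and 185, 35.8 and 124 in untagged libraries. At the TMM-scaled sizes the tagged libraries were thus alike and all higher than the untagged ones. At these sizes the difference followed the untagged library of each pair. Relative to total listed reads the tagged libraries would be less alike, but still all higher than the untagged ones. The share of all listed regions with such a separation of the groups was not counted.

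The log2 enrichment of this region was 0.12, 2.34 and 0.68 in pairs 1, 2 and 3, a mean of 1.05 ± 1.15 (SD, n = 3), or 2.07-fold. Without replicate 2 the mean was 0.40. The tagged share of the reads in pair 1 was 71.0% (95% Clopper-Pearson interval 63.1% to 78.0%, counting error only), and 69.1% would be even coverage at the scaled library sizes. In pair 2 the share was 95% (83.1% to 99.4%) against an even 77.4%, and in pair 3 it was 85.1% (74.3% to 92.6%) against an even 77.8%. At the TMM-scaled sizes the interval thus lay above even coverage in pair 2 and included it in pairs 1 and 3. The TMM factor was 0.82 for gSOC1-GFP replicate 1 and 0.61 for untagged replicate 1. Without these factors, at 663108 and 396326 listed reads, the even share of pair 1 falls just below the interval. At total listed reads the interval thus lies above even coverage in pairs 1 and 2 and includes it in pair 3. The reading of pair 1 therefore depends on the scaling. The deposited FDR of the region, from the authors' deposited table, was 0.00277, 0.000205 and 0.0184. edgeR gave a log2 fold change of 0.75 (adjusted p = 1.00), and 0.82 with the replicate block (adjusted p = 1.00).

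Among the 270 called regions, 14 had a lower mean log2 enrichment than this one, and 66 had a larger highest FDR over the 3 replicates. By pair, 14, 104 and 4 called regions had a lower log2 enrichment in pairs 1, 2 and 3. The median called region had a mean of 2.43. The centre of the region lay 184 bp upstream of AT2G22530, a protein-coding gene that runs away from SVP, and so much nearer to that gene than to SVP. With genes assigned only up to 1000 bp upstream, it was no longer a region of SVP and the group had 0 called regions. At an FDR of 0.01 in place of 0.05 it was not called.

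The region in the 5' UTR of SVP (9579979 to 9580275, 297 bp, rank 368) was not called, although its mean log2 enrichment was the highest of the 13. It held 75, 26 and 23 reads in gSOC1-GFP libraries, and 9, 1 and 5 reads in untagged libraries. Its scaled CPM, at 138, 136 and 81.0 in gSOC1-GFP, lay above all untagged values of 37.1, 17.9 and 61.8. How common this separation is among all listed regions was not counted. The log2 enrichment was 1.78, 2.66 and 0.37 in pairs 1, 2 and 3, a mean of 1.60 ± 1.16 (SD, n = 3), which exceeded that of 93.9% of all listed regions. At the TMM-scaled sizes the tagged share exceeded the even 69.1% in pair 1, at 89.3% (95% Clopper-Pearson interval 80.6% to 95%). In pair 2, with 1 untagged read, it exceeded the even 77.4%, at 96.3% (81.0% to 99.9%). Without the TMM factors, at 183668 and 41073 listed reads, the even share of pair 2 is higher and the interval includes it. The excess in pair 2 therefore depends on the scaling, whereas that in pair 1 remains. In pair 3 the tagged share was 82.1% (63.1% to 93.9%), an interval that includes the even 77.8%. The authors' deposited table gave FDR values of 3.67e-09, 0.00351 and 0.242, so that replicate 3 alone kept the region from being called, and without replicate 3 the group had 2 called regions. A pass in at least 2 replicates was reached by 2 of the 13 regions, both at SVP, against 2.62% of all regions. edgeR gave a log2 fold change of 1.56 (adjusted p = 1.00; unadjusted p = 0.0782), and 1.56 with the replicate block (adjusted p = 1; unadjusted p = 0.0272).

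Between these lay the region 1201 bp upstream of SVP (9578608 to 9578738), whose 131 bp is the shortest length in the table. It held 13, 3 and 5 reads in gSOC1-GFP libraries and 4, 0 and 7 in untagged libraries, and its log2 enrichment averaged 0.20 ± 2.15 (SD, n = 3). The groups overlapped, and pairs 1 and 2 were above 0, pair 2 with 0 untagged reads, whereas pair 3 was below it. The log2 fold change over all libraries had the opposite sign to the mean, at -0.67 by edgeR and -0.99 by DESeq2. In every gSOC1-GFP library this region held fewer reads than the region farther upstream and the 5' UTR on either side of it. The centre of the 5' UTR region was also within 3000 bp of AT2G22530, at 2685 bp, so all 3 SVP regions were shared with that gene. Of all genes with a listed region, 15.2% had 3 or more regions, as SVP did.

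**Figure D2:**
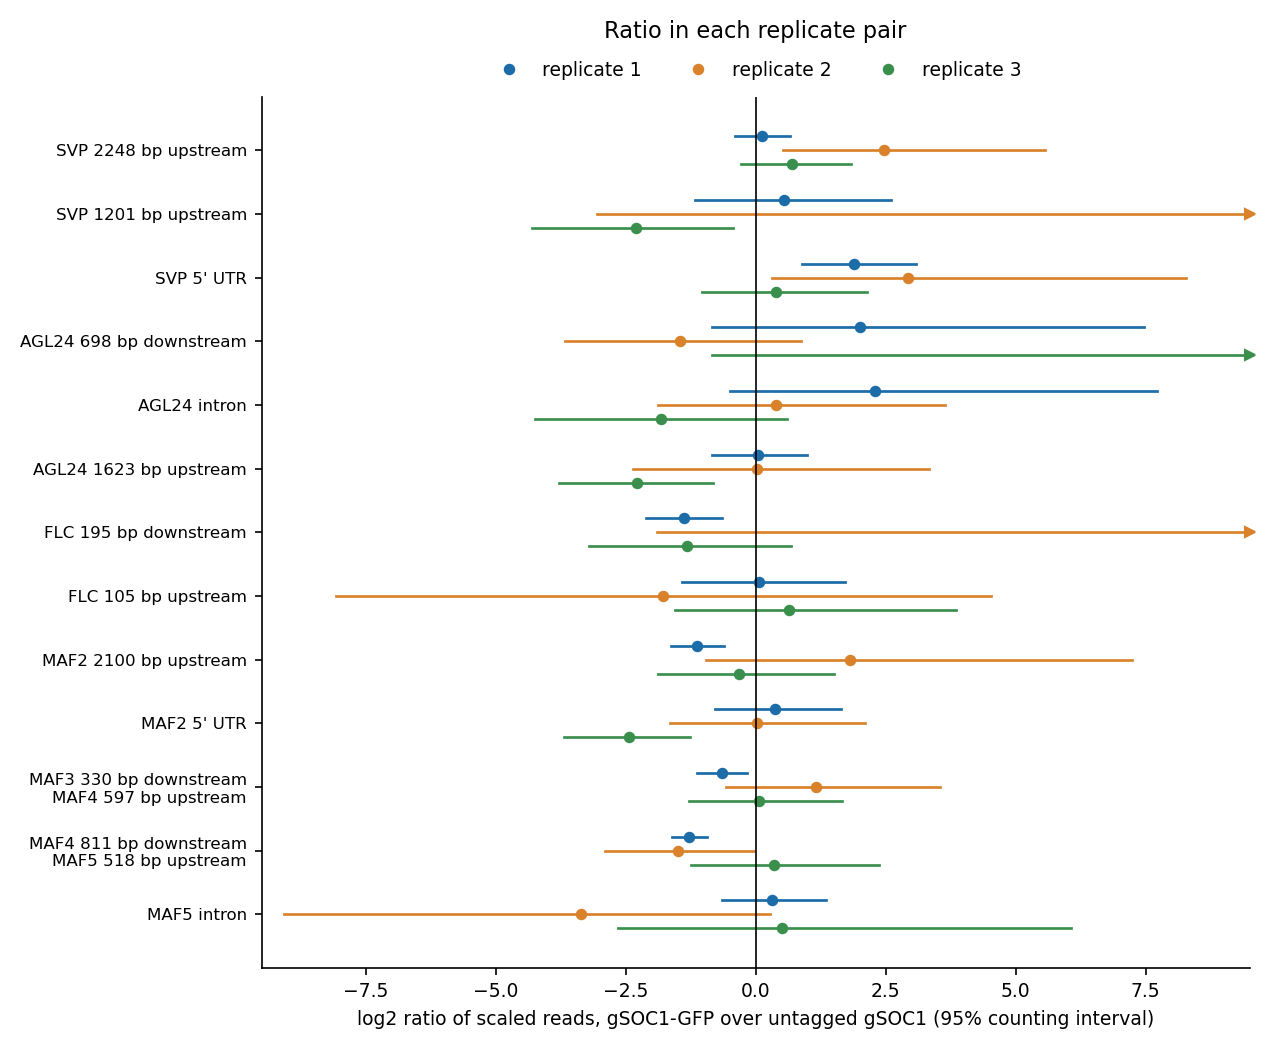
Log2 ratio of scaled reads in gSOC1-GFP over untagged gSOC1 for each replicate pair of the 13 regions, without a prior count; bars are 95% Clopper-Pearson counting intervals and an arrow marks a pair with 0 untagged reads, where the ratio has no upper limit. With TMM scaling, as plotted, the interval lies above 0 in pair 2 at the SVP region 2248 bp upstream. It also does so in pairs 1 and 2 at the SVP 5' UTR. At total listed reads the interval would also lie above 0 in pair 1 at the upstream region, and would include 0 in pair 2 at the 5' UTR.

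AGL24, which promotes flowering and is known to form a complex with SOC1, had 3 listed regions on chromosome 4 and no called one. The region 1623 bp upstream (12675536 to 12675855) held 37, 7 and 8 reads in gSOC1-GFP libraries and 16, 2 and 11 in untagged libraries. Its log2 enrichment was 0.04, 0.03 and -2.11 in the 3 pairs, a mean of -0.68 ± 1.24 (SD, n = 3). The counting intervals of pairs 1 and 2 included even coverage, and that of pair 2 was wide, with a tagged share of 40.0% to 97.2%. In pair 3 coverage was higher in the untagged library. This region lay 38 bp upstream of AT4G24550, the gene of an adaptor protein subunit, which is nearer than AGL24.

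The region within an intron of AGL24 (12672837 to 12673077) held 11, 9 and 4 reads in gSOC1-GFP libraries and 1, 2 and 4 in untagged libraries, so that its log2 enrichment averaged 0.12 ± 1.56 (SD, n = 3). The region 698 bp downstream (12670187 to 12670347), 253 bp upstream of AT4G24530, held 9, 5 and 9 reads in gSOC1-GFP libraries and 1, 4 and 0 in untagged libraries, a mean of 1.02 ± 2.21 (SD, n = 3). That mean is close to the one of the called SVP region, but it rests on at most 9 reads in any library, its pair 2 value was -1.32, and its counting interval included even coverage in all 3 pairs. The scaled values of the groups overlapped at all 3 regions of AGL24. The smallest FDR at AGL24 in the authors' deposited table was 0.0755, in replicate 1 at the intron.

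FLC, the central repressor of the vernalization response, had 2 listed regions on chromosome 5, at its opposite ends. The region 105 bp upstream (3179448 to 3179659), the nearest to a start among the upstream regions of the group, held 14, 1 and 11 reads in gSOC1-GFP libraries and 6, 1 and 2 in untagged libraries. Its log2 enrichment was 0.05, -1.22 and 0.57 in the 3 pairs, a mean of -0.20 ± 0.92 (SD, n = 3), and the groups overlapped. The edgeR log2 fold change was 0.07. The intervals of all 3 pairs included even coverage, and in pair 2, with 1 read in each library, the tagged share could lie anywhere from 1.26% to 98.7%.

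The region 195 bp downstream of FLC (3173187 to 3173417), which also lay 773 bp upstream of AT5G10130, held 32, 5 and 7 reads in gSOC1-GFP libraries and 37, 0 and 5 in untagged libraries. Its log2 enrichment was -1.31, 2.83 and -1.19 in the 3 pairs, a mean of 0.11 ± 2.36 (SD, n = 3), the widest spread of the 13 regions. The pair above 0 is the one with 0 untagged reads, and without that pair the mean was -1.25. The log2 fold change over all libraries had the opposite sign to the mean, at -1.12 by edgeR and -1.17 by DESeq2. In pair 1 the tagged share was 46.4% (95% Clopper-Pearson interval 34.3% to 58.8%), below the even 69.1%.

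MAF2, MAF3, MAF4 and MAF5, FLC relatives that stand in tandem on chromosome 5, had 5 listed regions between them, of which 2 were shared by neighbours, and none was called. MAF2, which is known to prevent a flowering response to brief cold, had a region 2100 bp upstream (25979988 to 25980319, also 1736 bp upstream of AT5G65040) with 67, 12 and 14 reads in gSOC1-GFP libraries and 65, 1 and 5 in untagged libraries. Its log2 enrichment was -1.09, 1.60 and -0.30 in the 3 pairs, a mean of 0.07 ± 1.38 (SD, n = 3), whereas the edgeR log2 fold change was -0.64. The region in the 5' UTR of MAF2 (25982108 to 25982403) held 26, 14 and 11 reads in gSOC1-GFP libraries and 9, 4 and 17 in untagged libraries, a mean of -0.65 ± 1.45 (SD, n = 3). The scaled groups overlapped at both, and unlike the 5' UTR of SVP that of MAF2 had its lowest pair value, -2.32, from an untagged library above its tagged partner.

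The region 330 bp downstream of MAF3 and 597 bp upstream of MAF4 (25991441 to 25991851) held 90, 23 and 22 reads in gSOC1-GFP libraries and 63, 3 and 6 in untagged libraries. At 411 bp it was the longest of the group, and with log2 values of -0.63, 1.11 and 0.06 its mean was 0.18 ± 0.88 (SD, n = 3), whereas the edgeR log2 fold change was -0.15. It had the best rank of the group outside SVP, 3102, and a smallest FDR of 0.0984, in replicate 2, in the authors' deposited table. The region 811 bp downstream of MAF4 and 518 bp upstream of MAF5 (25996818 to 25997154) held 141, 11 and 18 reads in gSOC1-GFP libraries and 152, 9 and 4 in untagged libraries. Its mean log2 enrichment, -0.78 ± 0.97 (SD, n = 3), was the lowest of the 13, with values of -1.26, -1.42 and 0.33. The region within an intron of MAF5 (25999237 to 25999538) held 36, 1 and 5 reads in gSOC1-GFP libraries and 13, 3 and 1 in untagged libraries, a mean of -0.64 ± 1.70 (SD, n = 3). None of these 3 regions separated the groups.

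Several of these regions had many reads in the untagged library of replicate 1, which measures precipitation without the tag. The region between MAF4 and MAF5 had 45.1 untagged reads per 100 bp in replicate 1, more than 99.4% of all listed regions. The corresponding values were 19.6 for the upstream region of MAF2 (more than 93.2%), 16 for the downstream region of FLC (90.7%), 15.3 for the region between MAF3 and MAF4 (90.1%) and 12 for the called region of SVP (86.8%), whereas the 5' UTR of SVP had 3.03 (50.8%). At the first 4 of these regions the counting interval of the tagged share in pair 1 lay below even coverage at the TMM-scaled library sizes. At total listed reads the interval of the region between MAF3 and MAF4 (50.6% to 66.7%) would include even coverage. At the TMM-scaled sizes the interval of pair 1 lay below even coverage in 4 of the 13 regions, against 16.2% of all regions. Other scalings were not used for these counts. In pairs 2 and 3 it lay below in 1 and 3 of the 13, against 2.03% and 2.65%. It lay above even coverage in 1, 2 and 0 of the 13 in pairs 1, 2 and 3, against 4.87%, 1.96% and 2.62%. The part of the untagged background in the values of these regions was not tested.

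FLM, whose splice forms act with SVP in the response to ambient temperature, had no row in the table used here and was not analysed here. Region identifiers run in genome order, and 7 consecutive identifiers have no row between the listed regions on either side of FLM. Why these identifiers have no row is not known, so the lack of a row cannot be read as presence or absence of binding at FLM. Over the whole table, 5916 identifiers have no row. They include 2 at the AGL24 locus, 1 at the MAF2 to MAF5 locus and 0 at the loci of SVP and FLC. The regions described at AGL24 and the MAF genes may therefore be incomplete. By the same windows 24.2% of 27444 nuclear protein-coding genes in RefSeq had no row.

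**Figure D3:**
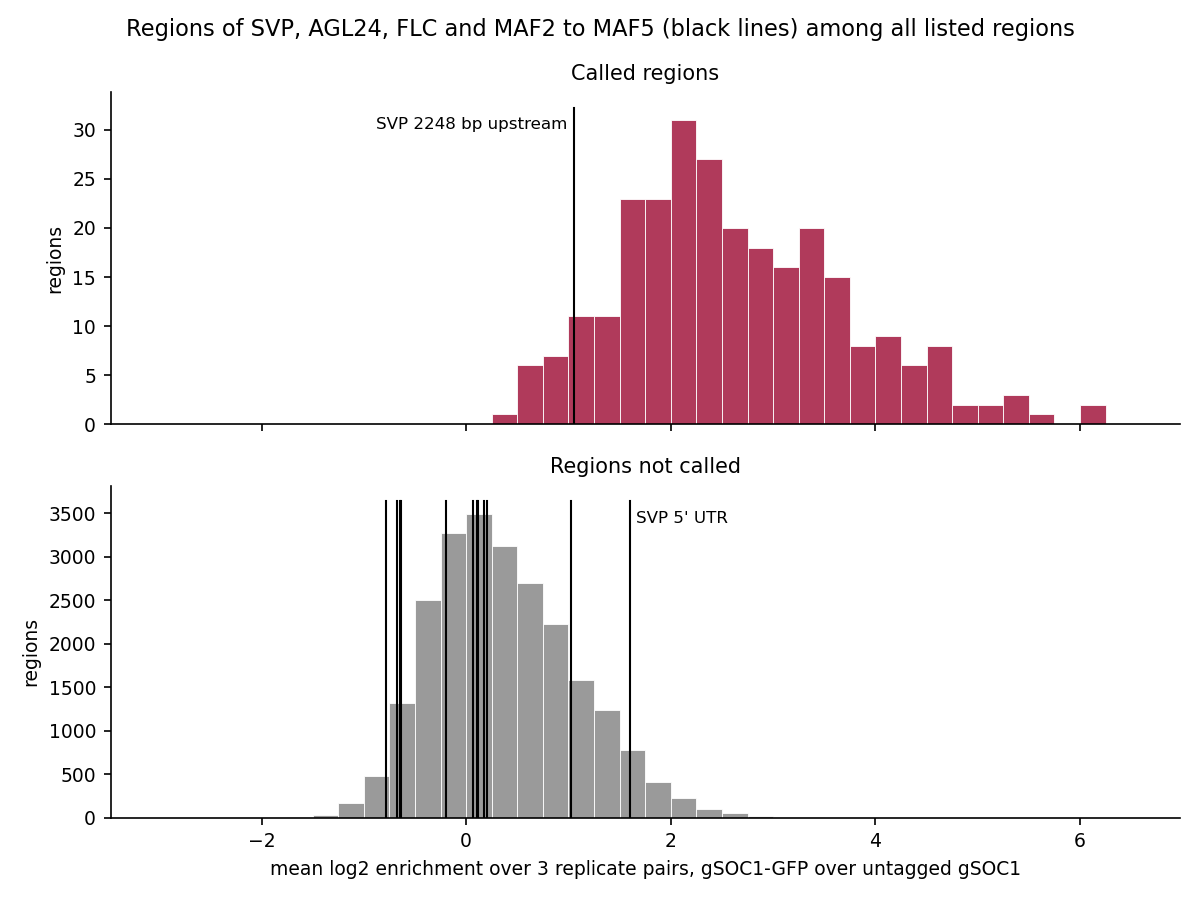
Number of called regions (upper panel) and of regions that were not called (lower panel) by mean log2 enrichment of gSOC1-GFP over untagged gSOC1 in 3 replicate pairs, with the 13 regions of the group as black lines. The called SVP region, at 1.05, lies left of the called median of 2.43, and the SVP 5' UTR, at 1.60, lies to the right of the other regions of the group.

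The regulators of FLC were counted as the next layer of the pathway. Of 34 such genes, which include FRIGIDA and its partners, the autonomous pathway, the vernalization proteins and the Polycomb and chromatin proteins that set FLC activity, 30 had a listed region and 1 of these had a called region, against 1.75% of all genes with a listed region. The listed genes had 53 regions with a median of the mean log2 enrichment of 0.34, against 0.31 over all regions. The called region was in the 5' UTR of VEL1 (AT4G30200), a relative of the vernalization protein VIN3. It held 59, 38 and 36 reads in gSOC1-GFP libraries and 17, 6 and 4 in untagged libraries. The log2 enrichment was 0.60, 0.86 and 1.29, a mean of 0.92 ± 0.34 (SD, n = 3), lower than at the called SVP region but with less spread. It did not pass edgeR with the replicate block (adjusted p = 1.00) or without it (adjusted p = 1.00). No region of the list passed edgeR in either fit, and VIP3, FLD, FLK and FIE had no row.

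Of 11 genes that SVP, AGL24 or FLC act on or with, 9 had a listed region and 4 of these had a called one, against 1.75% of all genes with a listed region. They were SOC1, SEP3, AGL15 and AGL18, and TSF and CAL had no row. This list was drawn up with earlier results on these genes known, so its count is a description. The called region of SEP3 lay 2725 bp upstream, beyond the shorter window of 1000 bp, and was also a region of AT1G24265. That of AGL15, 234 bp upstream, was also a region of PPH. FT, the florigen gene, FD, its bZIP partner, LFY and AP1, which set floral meristem identity, and GA20OX2, a gibberellin synthesis gene, had listed regions but no called one. Side by side, the log2 enrichment in pairs 1, 2 and 3 was 0.12, 2.34 and 0.68 at the called SVP region and 1.78, 2.66 and 0.37 at the SVP 5' UTR. It was 2.83, 2.23 and 1.68 at AGL15 and 2.61, 7.30 and 4.21 at AGL18, both repressors of the MADS family, where AGL18 had 0 untagged reads in pair 2. It was 3.59, 5.50 and 4.01 at the nearer region of SOC1, whose sequence the transgene of both lines also carries. In pairs 1 and 3 both SVP regions were lower than these regions of AGL15, AGL18 and SOC1, and in pair 2 both were higher than AGL15 and lower than AGL18 and SOC1. These differences between genes were not tested. edgeR with the replicate block called 3 of its 17 regions, at SOC1, SEP3 and AGL18 (adjusted p = 0.00937, 0.0063 and 0.00341), against 0.379% of all regions, and without the block it called 0.

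**Figure D4:**
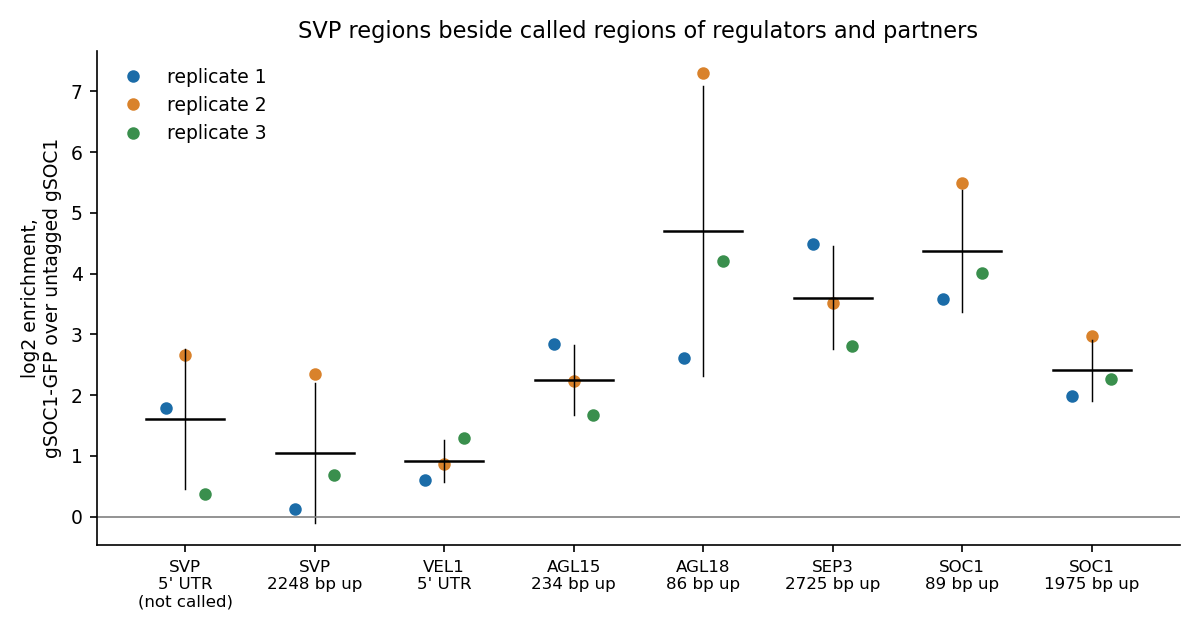
Log2 enrichment of gSOC1-GFP over untagged gSOC1 in each replicate pair (points), with the mean (horizontal line) and SD (vertical line, n = 3 pairs). Shown are the SVP regions 2248 bp upstream and in the 5' UTR, and the called regions of FLC regulators and of partner and target genes. The SVP region 1201 bp upstream is not shown. The called SVP region has points at 0.12, 2.34 and 0.68, and the regions of SOC1, SEP3, AGL15 and AGL18 lie at 1.68 or higher in every pair.

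The 5 called regions most like the called SVP region were found by the Euclidean distance between their log2 enrichments in the 3 pairs. They lay between AT2G21120 and AT2G21130 (distance 0.34), within AT3G20975 (0.50), between AT1G75490 and WAT1 (0.51), between AT3G12180 and AT3G12190 (0.66) and upstream of AT5G06060 (0.68). Their log2 enrichment, which chose them, was -0.08 to 0.47 in pair 1 and 1.91 to 2.62 in pair 2. The pairs are the only measure of likeness here, and 3 values give little resolution.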

How the data were processed

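The authors deposited 1 table of candidate regions with a text defining its columns, and no sample-level files were used. Its read counts per library are raw, per the file headers. The authors' FDR, a p-value adjusted by Benjamini and Hochberg, was given for each replicate, and the rank score ordered regions by the rank product of the 3 FDR values, both as deposited. Coordinates are in TAIR10, a build taken from the submitters' processing notes. The sources used here do not give the aligner, the region caller, read filters or the authors' test. Region starts are the deposited ones, with no statement on counting from 0 or from 1, and ends were computed from start and length.

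Groups and replicate numbers came from sample titles. Genes were placed by the other columns the authors deposited, distances from the region's centre. RefSeq (assembly TAIR10.1) was used for names, gene order and the number of genes without a row, and 33 of 34 and 11 of 11 symbols of the pathway lists matched. Members and lists were chosen with earlier results of these data known. All regions of the members were described; of the pathway lists, genes with a called region were named, and the others named only by having a listed region or none.

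Counts were tested with edgeR 4.0.16 in R 4.3.3 (TMM, quasi-likelihood, no filter, all listed regions) and with DESeq2 1.42.0 as an alternative. Log2 enrichment used TMM-scaled counts with a prior count of 1, which pulls the log2 ratios of low counts toward 0. Counting intervals (Clopper-Pearson, scipy 1.17.1) used no prior count. Reads amplified by PCR are not independent molecules, so intervals cover counting error only. Even coverage was taken at the TMM-scaled library sizes, and intervals were set against total listed reads only where the text says so. Deviations from group means correlated at 0.498, 0.123 and 0.139 between tagged and untagged libraries of numbers 1, 2 and 3. All exceed 0.1, the bound set for taking the numbers as pairs, though those of 2 and 3 do so narrowly. gSOC1-GFP replicate 3 correlated at 0.131 with untagged replicate 2, and gSOC1-GFP replicate 2 at 0.088 with untagged replicate 3. Deviations within a group sum to 0, so the match of number 1 alone raises the values among numbers 2 and 3. The bound therefore cannot decide the pairing of numbers 2 and 3, which rests on the sample titles.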

Additional observations from a re-analysis of the deposited data

How the results depend on the processing

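The number of called regions of the group, 1, became 0 at an FDR of 0.01 and 0 with genes assigned up to 1000 bp upstream, and it became 2 where at least 2 replicates had to pass, a rule that 2.62% of all regions met. With single replicates omitted it was 1 to 2 (2 without replicate 3), since a region then had to pass in only 2 replicates. It was also 1 at an FDR of 0.1. The number of regions that edgeR called over the table, 0, was 91 with the replicate block, 80 with a filter on low counts, 290 with the filter and the block, 18 with total listed reads as library sizes, 211 with these totals and the block, and 94 with DESeq2. With libraries or pairs left out it ranged from 0 to 119, with 86 without replicate 1, 51 without untagged replicate 1, 1 without gSOC1-GFP replicate 2 or 3, and, with the block, 71, 119 and 69 without replicates 1, 2 and 3. The cause of these changes was not tested. In each of these 18 settings 0 regions of the group passed, so the block changed no call within it. The filter kept 8130 regions, among them 9 of the 13. With the filter and the block together, the 5' UTR of SVP had an adjusted edgeR p of 0.0984 over the regions kept. The mean log2 enrichment of the called SVP region ranged from 0.40 to 1.51 over its settings and that of the SVP 5' UTR from 0.99 to 2.22. The region between MAF4 and MAF5 stayed below 0 in its settings (-1.34 to -0.46), and each of the other 10 changed sign in at least 1 setting. Untagged replicates 2 and 3 held 0 to 17 reads in each of the 13 regions, those of SVP included, which limits the precision of every pair 2 and pair 3 value.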

Other observations

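Beyond the windows, 4 more rows named a gene of the group as the nearest on one side. The region 2566 bp downstream of AGL24 held 4, 0 and 7 reads in gSOC1-GFP libraries and 0, 1 and 1 in untagged libraries. The region 4216 bp downstream of MAF5 held 3, 2 and 5 reads in gSOC1-GFP libraries and 3, 1 and 0 in untagged libraries. The other 2 rows, 5173 bp upstream of MAF3 and 3213 bp downstream of MAF4, were the regions in the 5' UTR of MAF2 and in the intron of MAF5. None of the 4 passed the authors' FDR in any replicate.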
